A study of Mus musculus with 4 samples.

Results

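The genes described here are the 10 that make up the oxygen-sensing core of the cell: the alpha subunits Hif1a, Epas1 and Hif3a, their partners Arnt and Arnt2, the prolyl hydroxylases Egln1, Egln2 and Egln3, the asparaginyl hydroxylase Hif1an, and Vhl, which encodes the recognition subunit of a ubiquitin ligase. They were taken by gene name from the gene annotation that the authors deposited for GRCm38, which holds 46078 genes, 22159 of them protein-coding. The 10 genes carried 33 of its 110379 transcripts. The study behind this annotation made 4 RNA-seq libraries, 1 per group, from the polyadenylated RNA of macrophages grown from mouse bone marrow. Donor mice were C57/BL6 by strain background and homozygous for a floxed allele of Piezo1, a stretch-activated ion channel, both in the groups called WT (Piezo1 fl/fl) and in those called KO (Piezo1 fl/fl, LysM Cre+). LysM-Cre acts in myeloid cells, the donors were cohoused littermates, and their ages are not stated in the labels. Macrophages grown with M-CSF at 50 ng/mL spent 6 h in a chamber fed with 21% O2 and 5% CO2, under static pressure or under cyclic pressure of about 15 mmHg (0.6 s intake, 0.4 s exhaust). Expression values of these libraries were not analysed here, so the cell type was not checked against its markers, the depth is unknown, and every value below is a property of the gene models with no replicate error and no test.

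Hypoxia-inducible factors are dimers of an alpha subunit and an ARNT partner, and the oxygen supply acts on the alpha subunit. When oxygen is present, prolyl hydroxylases modify prolines within LxxLAP motifs of the alpha subunit, and VHL binds the hydroxylated prolines and directs the protein to the proteasome. The asparaginyl hydroxylase modifies an asparagine near the C-terminal end, which blocks the binding of coactivators. In macrophages, HIF1A is known for driving glycolysis and inflammatory genes, and EPAS1 (also called HIF2A) is the other main alpha subunit.

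The 10 genes lay on 7 chromosomes, with no 2 of them next to each other. Among the alpha subunits, Hif1a (ENSMUSG00000021109) was annotated at chr12:73901375-73947530 on the plus strand, Epas1 (ENSMUSG00000024140) at chr17:86753907-86833410 on the plus strand and Hif3a (ENSMUSG00000004328) at chr7:17031507-17062427 on the minus strand. Arnt (ENSMUSG00000015522) was at chr3:95434388-95497240 on the plus strand and Arnt2 (ENSMUSG00000015709) at chr7:84246281-84409959 on the minus strand. The prolyl hydroxylases were all on minus strands, Egln1 (ENSMUSG00000031987) at chr8:124908596-124949254, Egln2 (ENSMUSG00000058709) at chr7:27158658-27166802 and Egln3 (ENSMUSG00000035105) at chr12:54178981-54203860. Hif1an (ENSMUSG00000036450) was at chr19:44562850-44576274 and Vhl (ENSMUSG00000033933) at chr6:113623959-113631633, both on plus strands.

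The hydroxylated sites were found by translating the transcript sequences of GENCODE M21 (build GRCm38), whose coding intervals were the same as the deposited ones for all 20 protein-coding transcripts of the 10 genes. The sequences below are the coding strand, 5′ to 3′. Capitals mark the codons of LxxLAP, the last of which is the proline, or the codons of cysteine, glutamate, valine and asparagine (CEVN) around the hydroxylated asparagine. They are shown because they are the stretches on which the hydroxylases and VHL act.
Hif1a, first LxxLAP site, chr12:73939683-73939712, plus strand: gatgctCTCACTCTGCTGGCTCCAgctgcc
Hif1a, second LxxLAP site, chr12:73941970-73941999, plus strand: ttagatTTGGAGATGCTGGCTCCCtatatc
Epas1, first LxxLAP site, chr17:86824564-86824593, plus strand: gaggaaCTGGCCCAGTTGGCCCCCacccca
Epas1, second LxxLAP site, chr17:86827507-86827536, plus strand: ctggatTTGGAGACCTTGGCACCCtacatc
Hif3a, LxxLAP site, chr7:17041199-17041228, minus strand: ctggacTTGGAGATGCTGGCCCCCtacatc
Hif1a, asparagine site, chr12:73945611-73945640, plus strand: agttacgatTGTGAAGTTAATgctcccata
Epas1, asparagine site, chr17:86831010-86831039, plus strand: agatatgacTGTGAGGTGAACgtgcccgtg

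Hif1a and Epas1 each held 2 LxxLAP sites and 1 asparagine site, whereas Hif3a held 1 LxxLAP site and no match to CEVN. In Hif1a-001, the transcript with the longest coding sequence, the prolines were codons 402 in exon 9 and 577 in exon 12, of 836 codons. In Epas1 they were codons 405 and 530 of 874, again in exons 9 and 12. The single proline of Hif3a-002 was codon 489 of 664 and also lay in exon 12. The asparagine was codon 813 in exon 15 of Hif1a-001 and codon 851 in exon 16 of Epas1, which is the last exon in each. The asparagine therefore stood 96.9% and 97% of the way along these proteins. A missing match says only that these letters are not in the annotated protein.

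The residues with which the hydroxylases bind iron include a histidine and an aspartate written HxD. The codons of this pair lay near the middle or in the last part of each enzyme, and other iron-binding residues were not searched. In the lines below, capitals mark the codons of the histidine, the residue between and the aspartate, on the coding strand.
Egln1, HxD pair, chr8:124915718-124915744, minus strand: tatgtccgtCACGTTGATaacccaaat
Egln2, HxD pair, chr7:27160345-27160371, minus strand: tacgtgaggCATGTTGACaatccccac
Egln3, HxD pair, chr12:54185598-54185624, minus strand: tatgttcgcCATGTGGACaaccccaat
Hif1an, HxD pair, chr19:44568343-44568369, plus strand: acacctgctCACTATGATgagcagcag
The histidine was codon 290 of 400 in Egln1, 309 of 419 in Egln2, 135 of 239 in Egln3 and 199 of 349 in Hif1an. For the 3 prolyl hydroxylases, the pair was found as HxD followed by asparagine and proline (HxDNP), which occurred once in each protein. The letters HxD alone are common: Egln2 held 3 of them, and Hif1a, Epas1, Hif3a, Arnt and Arnt2, which are not hydroxylases, held 1 or 2 each. Exon 2 carried the pair in Egln1 and Egln3, exon 3 in Egln2, and exon 4 in Hif1an.

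**Figure D1:**
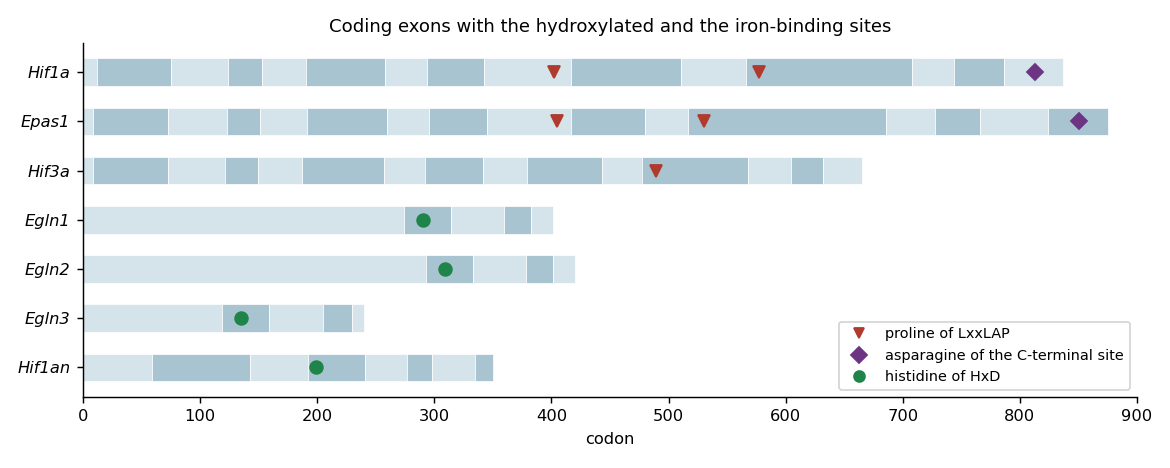
Coding exons of the 3 alpha subunits and the 4 hydroxylases, drawn along the codon number (x axis) as bars of alternating shade, with triangles for the prolines of LxxLAP, diamonds for the C-terminal asparagine and circles for the histidine of HxD. Hif1a and Epas1 carry 2 triangles and a diamond, and Hif3a carries 1 triangle at codon 489.

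Alternative starts were annotated for Hif1a, Hif3a, Arnt, Egln2 and Vhl. A start-site group is a set of transcripts with the same first base (each of the 103428 groups in the annotation had a single start position). These 5 of the 10 genes had 2 or more groups, against 58.3% of all protein-coding genes, a share near that background. Arnt, the partner shared by the alpha subunits, had 9 groups over 11 transcripts. Hif1a, Hif3a and Egln2 had 4 groups each, and Vhl had 3. Epas1, Arnt2, Egln1, Egln3 and Hif1an had a single group, and all but Hif1an had a single transcript (39% of protein-coding genes had only 1). In GENCODE M21, a comparison chosen after seeing the data, Arnt2 had 13 transcripts with 13 starts and Epas1 had 2 with 2, so that 7 of the 10 genes had 2 or more starts there, against 77.7% of protein-coding genes. In role order, the 3 alpha subunits had 9 groups, the 2 ARNT partners 10 and the 4 hydroxylases 7, of which Egln2 accounted for 4.

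**Figure D2:**
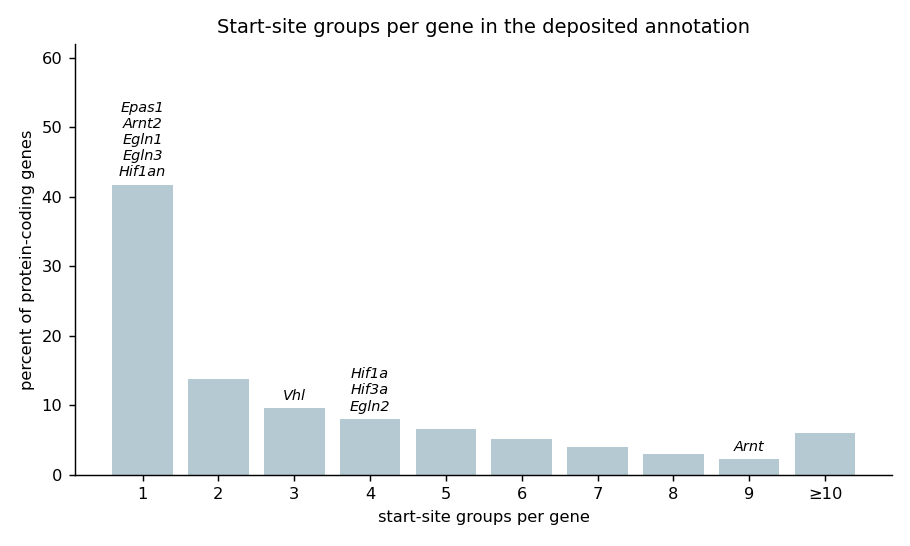
Share of the 22159 protein-coding genes (y axis, percent) by number of start-site groups per gene (x axis), with the 10 genes written above the bar they belong to. A single group was the most common state, at 41.7% of genes, and holds 5 of the 10, while Arnt stands at 9 groups.

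Many of these starts belonged to RNAs with no coding sequence or to coding fragments. Of the 29 groups of the 10 genes, 16 held a transcript with both an annotated start codon and stop codon (a complete coding transcript). The same count over all protein-coding genes is not given here. With protein-coding transcripts only, their share with 2 or more groups also fell, from 58.3% to 46.1%. At Vhl, only Vhl-001 was coding. The starts of Vhl-002 and Vhl-003 lay 762 and 970 bases downstream and belonged to processed transcripts, a class of spliced RNA with no coding sequence. At Arnt, 6 transcripts started within 40 bases of each other, and starts merged within 100 bases gave 5 groups instead of 9. Of the other Arnt starts, 1 lay 131 bases downstream and 4 lay 31900 to 55017 bases downstream, inside the gene. Those 5 transcripts had a retained intron, except for Arnt-009, a coding fragment with neither a start nor a stop codon.

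Hif1a had distinct first exons that changed the N-terminal end of the protein. Hif1a-003 began at chr12:73901375, which is 6529 bases upstream of the shared start of Hif1a-001 and Hif1a-002, and all were spliced to the same exon 2 of 191 bases. Exon 1 was 421 bases long in Hif1a-001 and held the start codon. In Hif1a-003 it was 124 bases long and noncoding, and the start codon lay in exon 2. The start codons and the first junctions read as follows, with ATG in capitals in the first pair and the bases of exon 2 in capitals in the second pair.
Hif1a-001 start codon, chr12:73908280-73908309, plus strand: ccgattcgccATGgagggcgccggcggcga
Hif1a-003 start codon, spliced from exons 1 and 2: caattaaaggATGagttctgaacgtcgaaa
Hif1a-001 exon 1 to exon 2: gaacgagaagaaaaaGATGAGTTCTGAACG
Hif1a-003 exon 1 to exon 2: ttagagcaattaaagGATGAGTTCTGAACG
The coding sequence of Hif1a-003 was 78 bases (26 codons) shorter than that of Hif1a-001. Of these, 36 bases were lost at the 5′ end and 42 bases, or 14 codons, from exon 11, which lies between the exons of the LxxLAP sites. In Hif1a-003 the prolines were accordingly codons 390 and 551 and the asparagine codon 787, of 810. Hif1a-002 ended in an extended exon 6 and encoded 258 codons, with neither the LxxLAP sites nor the asparagine site.

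Hif3a also had alternative first exons with separate start codons. The alpha subunit encoded by this gene is known for short forms that act against the others. Hif3a-001 began 5748 bases downstream of Hif3a-002, and each first exon was spliced to the same exon 2. The first exon contributed 20 coding bases in Hif3a-001 and 26 in Hif3a-002, so that the proteins had 662 and 664 codons and differed only at the N-terminal end. The junctions below have exon 2 in capitals.
Hif3a-001 exon 1 to exon 2: ctgggaccaagacagGTCGAACACCGAGCT
Hif3a-002 exon 1 to exon 2: gctgcagcgcgtgagGTCGAACACCGAGCT
Both kept the LxxLAP site, at codon 487 in Hif3a-001. Hif3a-003, which began 43 bases downstream of Hif3a-002, was a fragment of 461 bases with no stop codon.

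Egln2 differed from these, because its first exons left the protein as it was. Egln2-002 began 389 bases downstream of Egln2-001, both first exons were noncoding, and the shared exon 2 held the start codon, so both transcripts had the same 419 codons. The junctions show exon 2 in capitals.
Egln2-001 exon 1 to exon 2: ggaggaaaaagctcgCCACCCCCATCAGTC
Egln2-002 exon 1 to exon 2: ctcccttccggctggCCACCCCCATCAGTC
The annotation gave Egln2-001 transcript support level 1, the best grade, and Egln2-002 level 5, the weakest. Egln2-003 and Egln2-004 were processed transcripts whose starts lay 520 and 5931 bases downstream of the first.

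**Figure D3:**
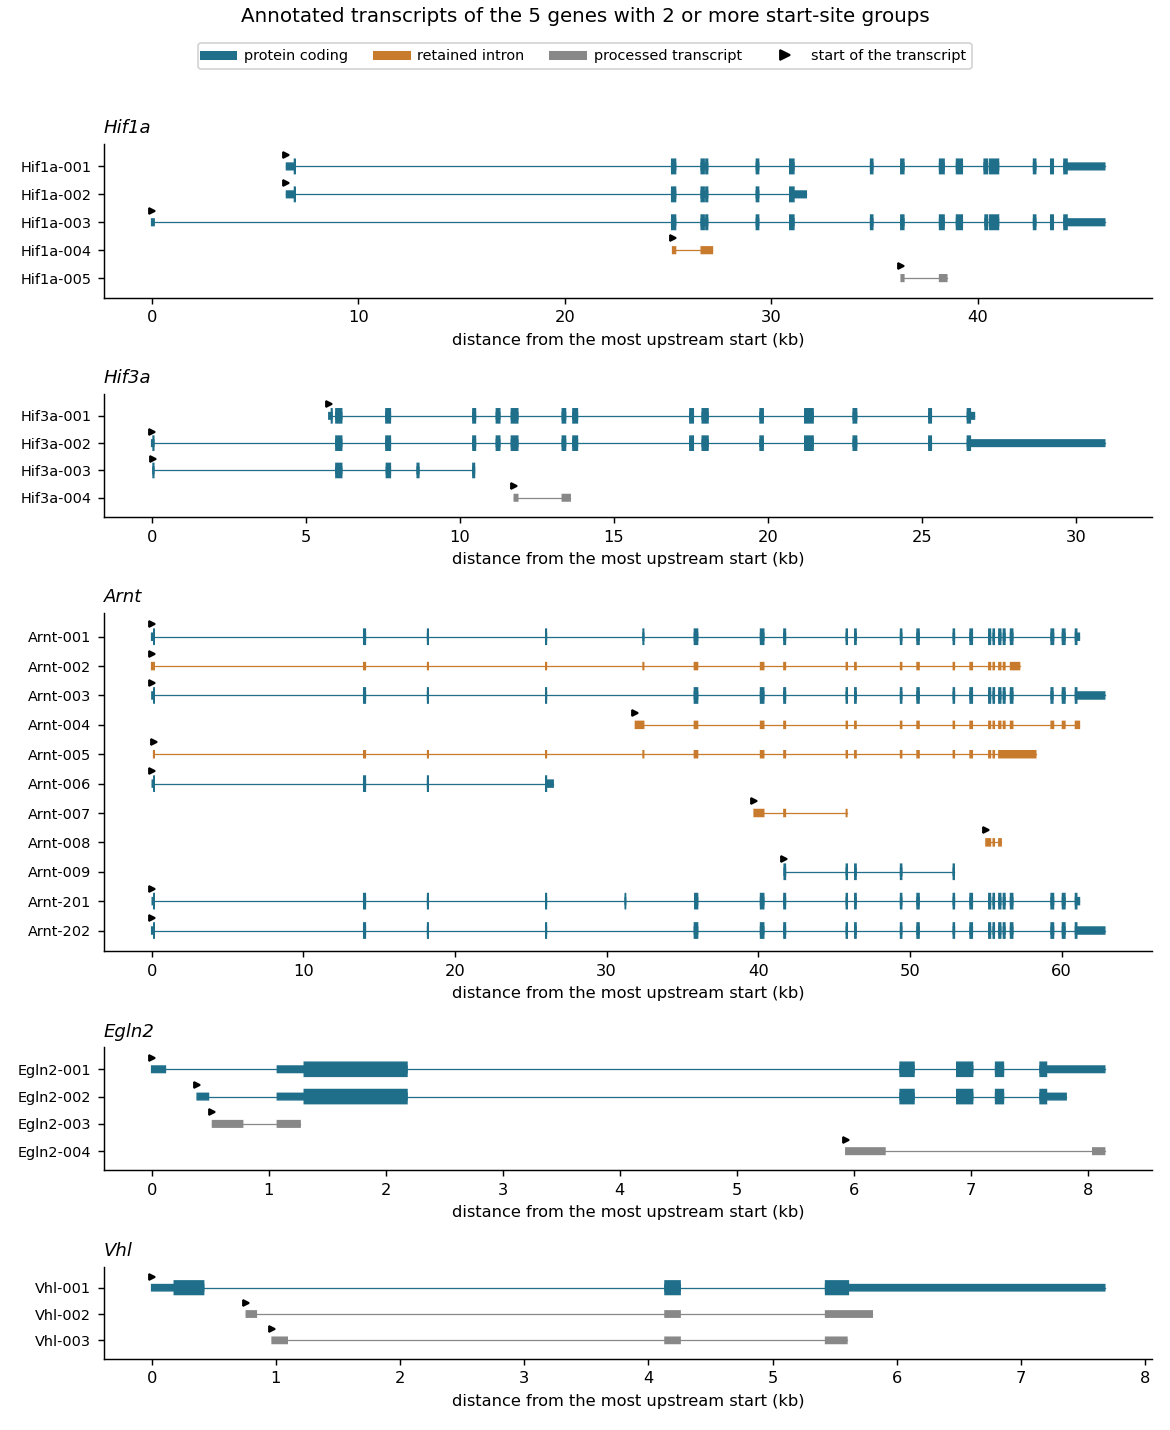
Annotated transcripts of the 5 genes with 2 or more start-site groups, along the distance in kb from the most upstream start of each gene (x axis, 1 scale per gene, 5′ end at the left). Tall boxes are coding, low boxes are noncoding exon, thin lines are introns and arrowheads are starts; the long first intron of Hif1a-003 and the clustered starts of Arnt stand out. Boxes carry an outline that widens the shortest exons so that they stay visible.

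More than 1 protein was annotated for Hif1a, Hif3a and Arnt, and a single protein for each of the other genes. A protein group is a set of transcripts with the same coding intervals. Of the 10 genes, 3 had 2 or more groups (Hif1a with 3, Hif3a with 3 and Arnt with 6), against 46.6% of protein-coding genes. In GENCODE M21 these were 5, with 9 sets of coding intervals for Arnt2 and 2 for Vhl, against 59.3% of protein-coding genes. The sets of Arnt2 and Vhl were counted over transcripts of every class. They included the class of nonsense-mediated decay (described below), with 3 transcripts at Arnt2 and 1 at Vhl, so not each set need be a stable protein. The 4 hydroxylases had 1 each in both annotations, and so did Epas1. Of the 19 groups in the deposited annotation, those of Hif3a-003 and Arnt-009 came from incomplete transcripts.

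The Arnt proteins differed mainly by a small exon near the N-terminal end. Arnt-001, with 791 codons, held exon 5 of 45 bases, and Arnt-202 lacked these 15 codons and had 776. Arnt-003 lacked them as well, together with 48 bases of exon 20, and had 760 codons. In Arnt-201 an exon of 12 bases stood in place of exon 5, exon 6 was 27 bases shorter, and the protein had 771 codons. Arnt-006 ended after 76 codons in an extended exon 4, far short of the other complete proteins. Arnt-201 had transcript support level 5, the weakest, whereas Arnt-001, Arnt-202, Arnt-003 and Arnt-006 had level 1.

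Transcripts classed as nonsense-mediated decay (NMD), the pathway that degrades RNAs with a premature stop codon, were absent from the deposited models of the 10 genes. Of the 33 transcripts, 20 were protein-coding, 7 had a retained intron, 6 were processed transcripts and 0 were NMD, a class present in 14.4% of protein-coding genes. For a set of 10 genes, 4 of them with a single transcript, an absence is not far from that share. In GENCODE M21, Arnt2 had 3 NMD transcripts and Vhl had 1, so 2 of the 10 genes had at least 1 there, against 20.8% of protein-coding genes. Retained introns occurred at 3 of the 10 genes, against 30% of protein-coding genes: 5 transcripts at Arnt and 1 each at Hif1a and Hif1an. Processed transcripts occurred at 4 genes (27.4% of protein-coding genes): Hif1a, Hif3a, Egln2 and Vhl. In GENCODE M21, 4 of the 10 genes had a retained intron, against 41.5% of protein-coding genes, so the members stood near the background in both annotations.

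The position of the stop codon was set against these classes. A stop more than 50 bases upstream of the last exon junction is the usual mark of an NMD substrate. In all 18 complete coding transcripts of the 10 genes the stop codon lay in the last exon, 32 to 207 bases past the last junction, with Egln3-001 the nearest and Hif1a-002 the farthest. A stop in the last exon is common. Over all protein-coding genes, 38618 protein-coding transcripts had an annotated stop and a junction, and 36200 of them had it there. Of these 38618 transcripts, 0.772% had the stop more than 50 bases upstream, against 98.3% of transcripts classed as NMD. All 18 transcripts of the 10 genes were classed as protein-coding, and annotated classes can rest on this same rule. The stop positions therefore describe the classes and do not test them.

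Coding sequences fell into size classes by role, and long 3′ untranslated regions (UTRs) were shared by most of the 10 genes. Lengths are from the complete coding transcript with the longest coding sequence of each gene, and coding length includes the stop codon. The alpha subunits had 2625 coding bases in Epas1, 2511 in Hif1a and 1995 in Hif3a. The ARNT partners were close to them, with 2376 in Arnt and 2139 in Arnt2. The prolyl hydroxylases were shorter, at 1260 in Egln2, 1203 in Egln1 and 720 in Egln3, with Hif1an at 1050 bases. Vhl was the shortest at 546 bases, and 13.1% of protein-coding genes had a shorter coding sequence. The shortest subunit, Hif3a, was thus longer than the longest hydroxylase, Egln2. The median over the 10 genes was 1627.5 bases, against 1191 over protein-coding genes.

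The 3′ UTR was longer than the median of protein-coding genes (604 bases) in 8 of the 10, the exceptions being Arnt and Egln2. Hif1an, which encodes the asparaginyl hydroxylase, had the longest at 5116 bases, or 82.6% of its transcript, and 98.1% of protein-coding genes had a shorter one. Hif3a followed with 4361 and Arnt2 with 3775 bases. Those of Epas1 (2308 bases), Egln1 (2112), Vhl (2064), Hif1a (1827) and Egln3 (1643) formed a middle group. Egln2 had 498 and Arnt 174 bases. The values of Hif3a and Arnt depended on the transcript: Hif3a-001 had 134 bases, and Arnt-202 had 1847 and Arnt-003 1844 bases, so these genes had both short and long annotated ends. The median over the 10 genes was 2088 bases.

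The 5′ UTR was between 28 and 386 bases long and did not follow the roles. Hif1a had 386 bases in Hif1a-001 and 125 in Hif1a-003, and Epas1 had 376. Among the hydroxylases, Egln2 had 349, Egln3 299, Egln1 200 and Hif1an 28 bases. Vhl had 182, Arnt 149, Arnt2 74 and Hif3a 46 bases, or 83 in Hif3a-001. In GENCODE M21 the 5′ UTR of Epas1 was 583 bases and that of Arnt2 234 bases, so the deposited 5′ ends of these single-transcript genes were shorter models. The median over the 10 genes was 191 bases, against 134 over protein-coding genes.

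**Figure D4:**
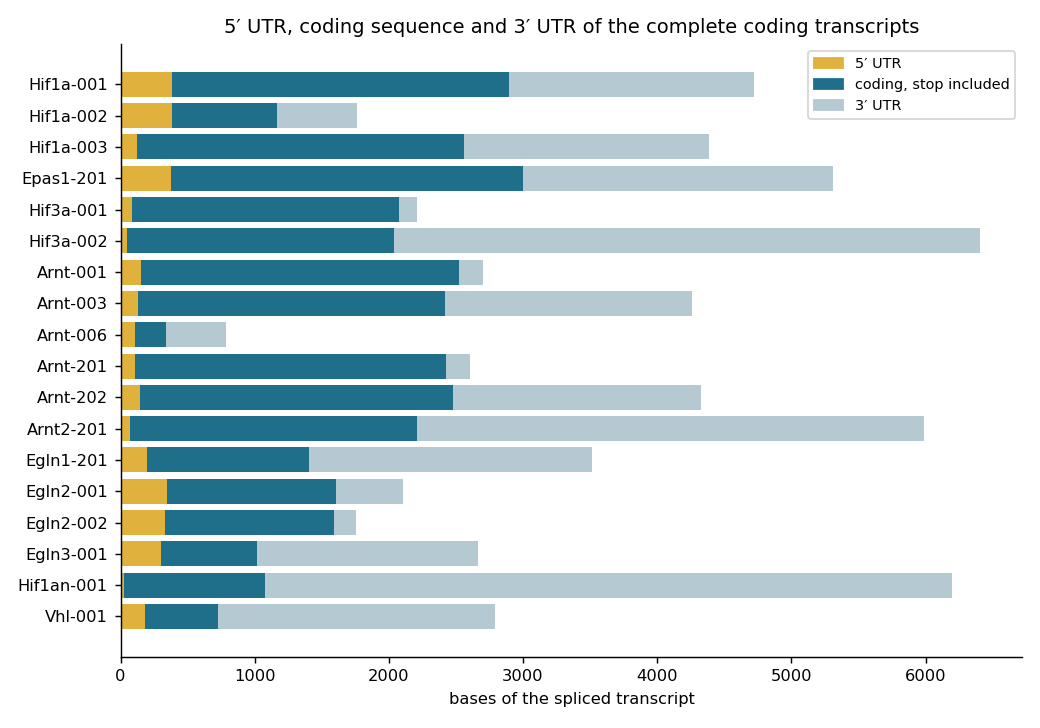
Length in bases (x axis) of the 5′ UTR, the coding sequence and the 3′ UTR of the 18 complete coding transcripts of the 10 genes, stacked from the 5′ end. The coding part is similar among full-length Hif1a, Epas1 and Arnt transcripts, while the 3′ UTR ranges from 134 bases in Hif3a-001 to 5116 bases in Hif1an-001.

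**Figure D5:**
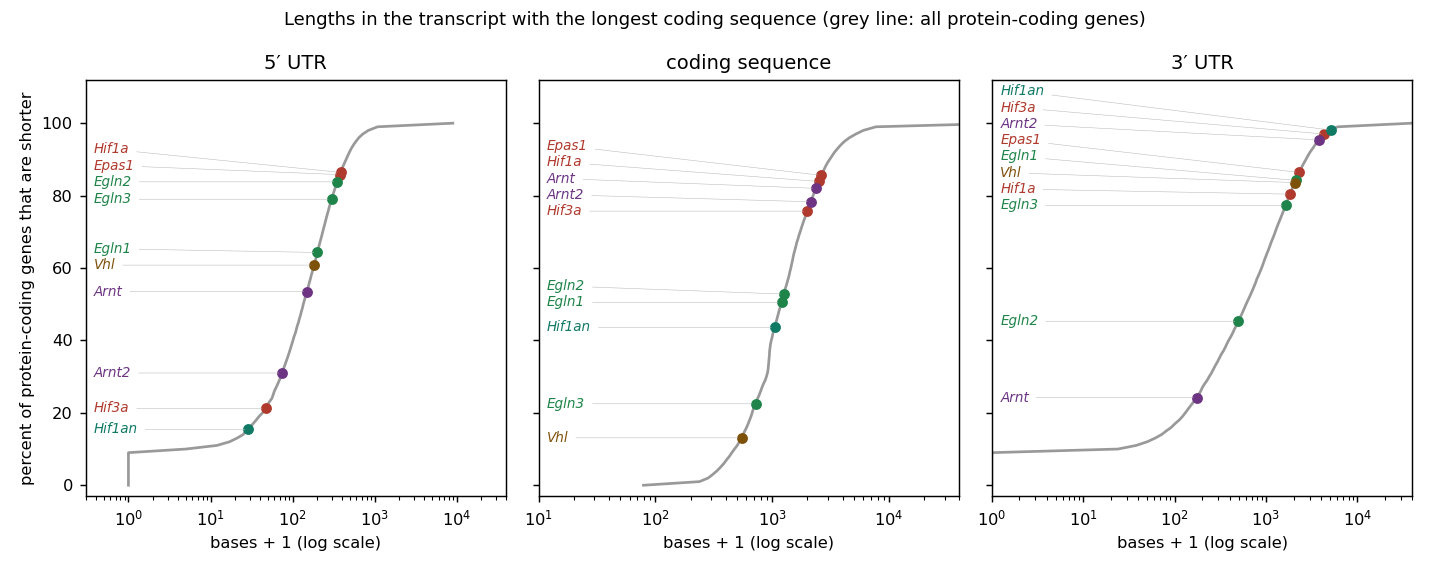
Position of each of the 10 genes (points, coloured by role) on the cumulative distribution over protein-coding genes (grey line) for the 5′ UTR, the coding sequence and the 3′ UTR. The x axes give bases plus 1 on a log scale and the y axis the percent of protein-coding genes that are shorter; for the 3′ UTR, 8 points lie above 75% and Arnt lies at 24.2%.

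The exon structure of the genes followed their families. Hif1a, Epas1 and Hif3a, with 15, 16 and 15 exons, shared coding lengths of 191 bases in exon 2, 85 in exon 4, 107 in exon 7 and 148 in exon 8. The remainder after division of each coding exon by 3, which sets how exons can be joined in frame, was the same over the leading 14 exons of Hif1a and Epas1 and over all 15 exons of Hif1a and Hif3a. Over aligned positions only, proteins were 52% identical for Hif1a and Epas1, 45.9% for Epas1 and Hif3a, and 43.2% for Hif1a and Hif3a. Arnt and Arnt2 were the most alike, with 66.3% identity, and exons 6 to 14 of Arnt had the same lengths as exons 4 to 12 of Arnt2. Coding exons 2 to 5 of Egln1 and Egln2 were equal in length, at 120, 137, 68 and 56 bases, and Egln3 shared 120 and 137. Egln1 was 60.9% identical to Egln3 over 238 aligned positions and 53.1% to Egln2 over 358. Egln2 was 58.2% identical to Egln3 over 232. Egln3 has 239 codons, so its comparisons left out much of Egln1 (400 codons) and Egln2 (419 codons). Hif1an shared 0 coding exon lengths with the prolyl hydroxylases.

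Intron 1 was the longest intron in 8 of the 10 genes, against 40.9% of protein-coding genes with 2 or more introns. In the transcripts used for the lengths it measured 48186 bases in Arnt2, 42807 in Epas1 and 32452 in Egln1, where it was 79.8% of the gene. In Hif1a it was 18232, in Egln3 17544, in Arnt 13810, in Hif3a 5905 and in Vhl 3713 bases. The exceptions were Egln2, with 955 bases in intron 1 and 4212 in intron 2, and Hif1an, with 235 and 2337 bases. Their genes were also compact, at 8145 and 13425 bases from first to last base, although Vhl was the smallest at 7675.

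The deposited model of Epas1 stopped short of a sequence that is known for iron control of this mRNA. Iron-regulatory proteins bind a stem-loop in the 5′ UTR of the EPAS1 mRNA when iron is scarce and hold back its translation, and its loop reads CAGTGN. In GENCODE M21, Epas1 began at chr17:86753700, which is 207 bases upstream of the deposited start at chr17:86753907. The 5′ UTR of the longer model held CAGTGN once, with the loop in capitals below.
Epas1 loop, chr17:86753768-86753797, plus strand: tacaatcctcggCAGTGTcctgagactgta
The loop began 127 bases upstream of the deposited start and was not in the deposited 5′ UTR. CAGTG alone is common: 22.9% of 44513 complete coding transcripts in GENCODE M21 had it in the 5′ UTR, and Hif1a-001 held it at positions 97 and 157 of its deposited 5′ UTR. The match is of the loop only, and pairing of a stem was not scored.

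Further elements of the UTRs were counted in the sequences of GENCODE M21. A poly(A) signal, AATAAA or ATTAAA, stood in the last 50 bases of 13 of the 18 complete coding transcripts (8 and 5 of them), against 62.5% of complete coding transcripts of all genes. Neither was found in Arnt-003, Arnt-202, Egln2-002, Hif3a-001 or Hif3a-002, which include both annotated ends of Hif3a and the long end of Arnt. ATG occurred upstream of the start codon 4 times in Egln2-001, 3 times in Egln2-002 and once each in Egln1 and Epas1, whose 5′ UTRs are longer there (270 and 583 bases) than in the deposited models. The pentamer ATTTA, the core of AU-rich elements known for mRNA decay, occurred 8 times in the 1827 bases of the Hif1a-001 3′ UTR, the highest count but not the highest density. Arnt-006 held 4 copies in 443 bases, and Hif1an 4 in 5116. G and C made up 31.7% of the Hif1a-001 3′ UTR, 31.2% of that of Arnt-006 and 51.6% of that of Hif1an.

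RefSeq promoters (GRCm38.p6, 250 bases before to 50 after the start) were matched by symbol for 9 of the 10 genes, all except Epas1, and Egln2 had 2 of them. HIF binds hypoxia response elements, whose core is ACGTG or GCGTG, and EGLN1 and EGLN3 are known as induced by hypoxia. A core on either strand was found in promoters of 6 genes, or 7 of the 10 promoters, against 43.8% of all 32851 RefSeq promoters. At least 2 matches were found in 4 of the 10, against 20.6%. Examples from the hydroxylases and from Hif1a follow, with the core in capitals, written on the strand of the gene, and with the position of its first base from the RefSeq start.
Egln1, position -68, chr8:124949305-124949334, minus strand: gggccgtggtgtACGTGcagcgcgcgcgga
Egln2, position -48, chr7:27166833-27166862, minus strand: agcctcctgtcaACGTGcggttcgcgcacg
Egln3, position -229, chr12:54204086-54204115, minus strand: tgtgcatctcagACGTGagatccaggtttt
Hif1a, position -70, chr12:73907785-73907814, plus strand: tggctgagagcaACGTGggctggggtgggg
The upstream Egln2 promoter had 6 matches, Hif1a 3, Egln1 and Hif3a 2 each, and Arnt, Egln3 and the other Egln2 promoter 1 each. CACGTG reads the same on both strands, so 1 site in Egln2 and 1 in Hif1a counted as 2 matches each. The dinucleotide CG, which both cores contain, occurred 60 times in Egln1, 29 in the upstream Egln2 promoter and 25 in Hif1a, against a mean of 12.4 over all promoters, and its part in the counts was not tested. No core was found in Vhl, Arnt2 or Hif1an, although CG occurred 40 times in Arnt2. The RefSeq start of Hif1a lay 37 bases from the start of Hif1a-001, so the start of Hif1a-003 was not in this window. The start of the other Egln2 promoter had no deposited start near it: the nearest, that of Egln2-003, lay at -554 from it. For Arnt2 the deposited start lay 79 bases downstream of the RefSeq start and outside the window. The windows thus describe RefSeq starts, which were within 37 bases of a deposited start for the other 8 promoters.

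Exons of another gene overlapped 2 of the 10 genes, near the share over all protein-coding genes (24.4%). In GENCODE M21, 3 of the 10 were overlapped, with Arnt2 added, and the share over all genes there is not given here. Hif1a lay over Gm15283, a processed transcript on the opposite strand, for 330 bases (5.6% of its exon bases), all coding in Hif1a. Egln2 shared 11 noncoding bases with the cytochrome P450 gene Cyp2t4 on the opposite strand. The labels do not say whether the kit marked strand, and without strand, reads from the overlapped stretch of Hif1a cannot be told apart from those of Gm15283. In the transcripts of GENCODE M21, windows of 75 bases (the read length) were shared with another gene at Hif1a, for 1.29% of windows on the same strand (Gm49321) and 3.17% on the opposite strand, and at Arnt2, for 1.81% on the opposite strand (Gm30873). The other 8 genes shared 0 windows.

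The stretch of exon that set a transcript apart from the others of its gene varied widely. Hif1a-002 had 600 exon bases found in no other Hif1a transcript, Hif1a-003 had 124, all of its first exon, and Hif1a-001 had 42, in exon 11. Egln2-001 had 346 such bases and Egln2-002 had 98. Arnt-001 and Arnt-003 had 0, Arnt-202 had 3 and Arnt-201 had 12, so these 4 Arnt transcripts differed in their combinations of exons and ends, with little or no sequence of their own. Other Arnt transcripts had more, with 1581 bases in Arnt-005 and 505 in Arnt-004, which have retained introns, and 447 in the short coding Arnt-006. Hif3a-001 had 103 bases, and Hif3a-002 had 4270, most of them in its long 3′ UTR.

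Other genes of the pathway were counted from a list of 43 symbols, of which 39 were found. Eloc, Elob and Rack1 are newer symbols of Tceb1, Tceb2 and Gnb2l1, which the list also held. Ca9 was not found under that symbol. Other symbols for it were not searched, so the counts of targets leave it out. Of the 39 genes, 25 (64.1%) had 2 or more start-site groups, 20 (51.3%) had 2 or more protein groups and 7 (17.9%) had an NMD transcript, each near its share of protein-coding genes (58.3%, 46.6% and 14.4%). Their median 3′ UTR was 948 bases and their median coding length 1512 bases. Among HIF targets, 11 of 13 (84.6%) had 2 or more start-site groups, against 45.5% to 71.4% in the other sets of the list. Vegfa, the vascular growth factor gene, Pdk1 and Ndrg1 had 8 groups each. Merged within 100 bases, these were 5 in Vegfa, 5 in Pdk1 and 4 in Ndrg1. Of the 11 targets, merging left Slc2a1 and P4ha1 with a single start, and over all protein-coding genes it lowered the share to 50%. The sets are small, with 4 to 13 genes found in each, and the difference in share between them was not tested. Targets also held both a long 3′ UTR, 3734 bases in Pdk1, and a short one, 65 bases in the erythropoietin gene Epo.

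Among the partners of VHL in its ligase, Tceb1, which encodes the adaptor elongin C, had 10 start-site groups, or 4 with starts merged within 100 bases, and a 3′ UTR of 119 bases. Cul2, the cullin scaffold, had 6 groups, or 4 merged, and the longest 3′ UTR of that set at 1402 bases. Of the coactivators, Ep300 had 5 start-site groups (4 merged), Crebbp a 3′ UTR of 2720 bases and Cited4 one of 469 bases. Among genes tied to HIF stability, the chaperone gene Hsp90aa1 had 8 start-site groups (7 merged), Os9 had a 3′ UTR of 1988 bases and P4htm, a transmembrane prolyl hydroxylase gene, one of 226 bases. The relatives with bHLH and PAS domains were nearest to the alpha subunits in coding length, with a median of 2298 bases over 11 genes. Of these, 5 had 2 or more start-site groups. Ahrr, the repressor of the aryl hydrocarbon receptor, and the circadian gene Clock had the most, at 5 each (4 and 3 merged). Clock had a 3′ UTR of 6831 bases and Npas1 one of 114 bases.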

How the data were processed

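The deposited file is a gene annotation (GTF) whose coordinates, 1-based on GRCm38, were given by the authors; its 1500259 lines hold no score and 0 columns of library values, so no test across samples applied. CASAVA 1.8, TopHat2 and Cufflinks are among the tools in the submitters' processing notes, and no source names the annotation's release. Genes were taken by exact name. Lengths, start-site groups, protein groups, classes and overlaps (at least 1 base) were computed with Python 3.11.15, and protein alignments with Biopython 1.88 (global, with free end gaps); figures were drawn with matplotlib 3.10.9. Functions were tested on simulated data, with 400 of 400 transcripts right. Sequences came from GENCODE M21 and RefSeq. Background shares cover 22159 protein-coding genes, and length ranks the 21553 with a complete coding transcript. Named genes are the 10 members, genes that overlap them, and in each set of the pathway list those with the most start-site groups and the longest and shortest 3′ UTR. Targets that merging left with a single start are named as well. The members and lists were chosen with earlier results of these data known.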

Additional observations from a re-analysis of the deposited data

How the results depend on the processing

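Of 160 values recomputed under another setting, 138 stayed close to the reported value and 22 moved. Close means within 1.5 times for counts and lengths, and within the exact 95% binomial interval, which is narrow, for shares of genes. Coding lengths of single genes stayed close in 40 of 40, but most of these could hardly move. Epas1, Arnt2, Egln1, Egln3, Hif1an and Vhl had a single coding transcript, and both coding transcripts of Egln2 had the same coding sequence. For these genes the rule for choosing a transcript could not change the coding length. GENCODE M21 also had the same coding intervals for all 20 protein-coding transcripts. Start-site groups over the 10 genes fell from 29 to 18 with protein-coding transcripts only and were 43 in GENCODE M21, where 7 members had 2 or more. The share of protein-coding genes with 2 or more start-site groups was 50% with starts merged within 100 bases, 46.1% with protein-coding transcripts only, 95.5% among genes with 2 or more transcripts and 77.7% in GENCODE M21. The share with 2 or more protein groups was 43.5% with protein-coding transcripts only, 31.4% with both codons annotated and 59.3% in GENCODE M21. The share with an NMD transcript was 23.4% among genes with 2 or more transcripts and 20.8% in GENCODE M21, and for retained introns 49.1% and 41.5%. In GENCODE M21, 5 members had 2 or more protein groups (NMD transcripts included), 2 had an NMD transcript and 4 a retained intron. With a minimum of 100 bases, 1 member overlapped another gene. In GENCODE M21, with a minimum of 1 base, 3 did. The share of all genes is not given for either setting. The median 3′ UTR over complete coding transcripts was 2247.5 bases in Hif3a and 443 in Arnt. Start, protein, class and overlap comparisons with GENCODE M21 were chosen after seeing the data. The cause of the shifts was not tested. No paired analysis was possible because no value of any library was analysed and groups were single libraries, so no replicate could be left out either. Depth limits nothing printed here.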

Other observations

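The genes next to the alpha subunits were read off the annotation after the values above had been seen. The nearest protein-coding gene upstream of Hif1a was Prkch, 123189 bases away on the same strand, and the one upstream of Epas1 was Prkce, 95987 bases away on the same strand; both encode protein kinase C enzymes. Downstream of Egln3, at 106805 bases, lay Npas3, another bHLH-PAS gene, on the opposite strand. Arnt was followed within 2015 bases by Ctsk, the cathepsin K gene, on the same strand, and Hif3a within 3582 bases by Ppp5c.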
